A study of Homo sapiens with 6 samples.

Results

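The mitochondrial ribosomal proteins are the nuclear-encoded protein components of the ribosome that works inside mitochondria. Their genes were taken as all protein-coding genes whose symbol is MRPL or MRPS, a number and at most a letter from A to C. This rule found 78 of the 61541 genes in the count table, 49 with an MRPL symbol and 29 with an MRPS symbol, and it used no expression value. The study set shRNF26 cells, 3 libraries in which a short hairpin RNA targets RNF26, beside shcontrol cells, 3 libraries carrying a control hairpin. Both groups are A498, an established human cell line from a clear cell renal carcinoma, kept in RPMI-1640 medium with added fetal bovine serum, and the labels name no other treatment. RNF26 encodes an E3 ubiquitin ligase of the endoplasmic reticulum membrane. The labels give 1 cell line and name no second hairpin, so an effect of the hairpin sequence itself and an effect of losing RNF26 cannot be told apart. They do not say whether the 3 libraries of a group came from separate cultures, so p-values measure the spread between these libraries, which may be technical.

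Mitochondrial ribosomes translate the few proteins that mitochondrial DNA encodes, all of them membrane subunits of the respiratory chain and of ATP synthase. Their ribosomal RNAs are encoded by mitochondrial DNA, while every protein is made in the cytosol, imported and assembled with those RNAs into a small subunit, which decodes the messenger RNA, and a large subunit, which forms the peptide bond. Some of the proteins have bacterial counterparts, and others are found only in mitochondrial ribosomes. A few symbols predate the structure of the particle: MRPS30 and MRPS18A encode proteins of the large subunit, and MRPS36, named as a ribosomal protein, is now known as a component of the alpha-ketoglutarate dehydrogenase complex. By these assignments 26 of the genes belong to the small subunit, 51 to the large subunit and MRPS36 to neither.

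The 6 libraries held 16682871 to 18021718 counts each. The targeted gene, RNF26, averaged 68.7 ± 0.482 CPM in shRNF26 cells and 1972 ± 49.7 CPM in shcontrol cells (SD, n = 3 each), a log2 fold change of -4.84 (SE 0.040, edgeR adjusted p = 4.27e-24). All levels are CPM, a gene's counts relative to the library's total, scaled by edgeR's TMM factors, which correct for a few strongly expressed genes taking up reads, and a count of 0 in a library allows up to 3 counts, 0.166 to 0.180 CPM. The line's renal markers were mostly weak: 9 of 12 fell below the expression filter, among them SLC17A3, a renal phosphate transporter family member, with 0 counts in every library. PAX8, a renal lineage factor, averaged 2.12 CPM in shRNF26 cells and 2.90 CPM in shcontrol cells. Of the 3 renal markers above the filter, 1 was higher in shRNF26 cells and 0 were lower at an edgeR adjusted p below 0.05. Keratinocyte markers were all above the filter (8 of 8), with KRT17, an epithelial keratin, at 285 ± 1.39 CPM in shRNF26 cells and 511 ± 13.4 CPM in shcontrol cells (SD, n = 3 each). At the same threshold 1 of these 8 was higher in shRNF26 cells and 4 were lower. The shares passing were 33.3% of the renal and 62.5% of the keratinocyte markers, beside 41.4% of all tested genes. Of 6 fibroblast markers, COL1A1 passed the filter. These markers go against the renal label in part, and their bearing on the ribosomal protein genes was not tested.

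The mitochondrial ribosomal protein genes changed little and in both directions. Of the 78 genes, 76 reached a mean of 1 CPM over the 6 libraries and were tested. By edgeR's quasi-likelihood test at an adjusted p below 0.05 over all 14766 tested genes, 8 rose and 6 fell in shRNF26 cells, and 62 did not pass. The 14 called genes are 18.4% of the tested members, against 41.4% of all tested genes (18.9% of all tested genes were called higher and 22.6% lower). The TMM-scaled levels of the 3 shRNF26 libraries and the 3 shcontrol libraries did not overlap for 22 members, or 28.9%, against 50.1% of all tested genes. Without shcontrol replicate 1 the count of members called higher was 4 and that lower was 9, and without shRNF26 replicate 1 or shcontrol replicate 2 the count higher was 5.

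The sizes of the changes were small as well. The members' log2 fold changes ran from -0.35 for MRPL52 to 0.53 for MRPL38, with a median of -0.003, beside a median of 0.008 for all tested genes. Regardless of sign, the median log2 fold change was 0.083 for the members and 0.194 for all tested genes. Only MRPL38 of the 76 members changed by more than 0.5 on the log2 scale, which 2060 of all tested genes did, or 14.0%. For 74 of the 76 members the 95% confidence interval of the log2 fold change lay wholly within 0.5 of 0 on either side. The exceptions were MRPL38 (0.20 to 0.86) and MRPS24 (-0.75 to 0.11), a small subunit protein with a low count.

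**Figure D1:**
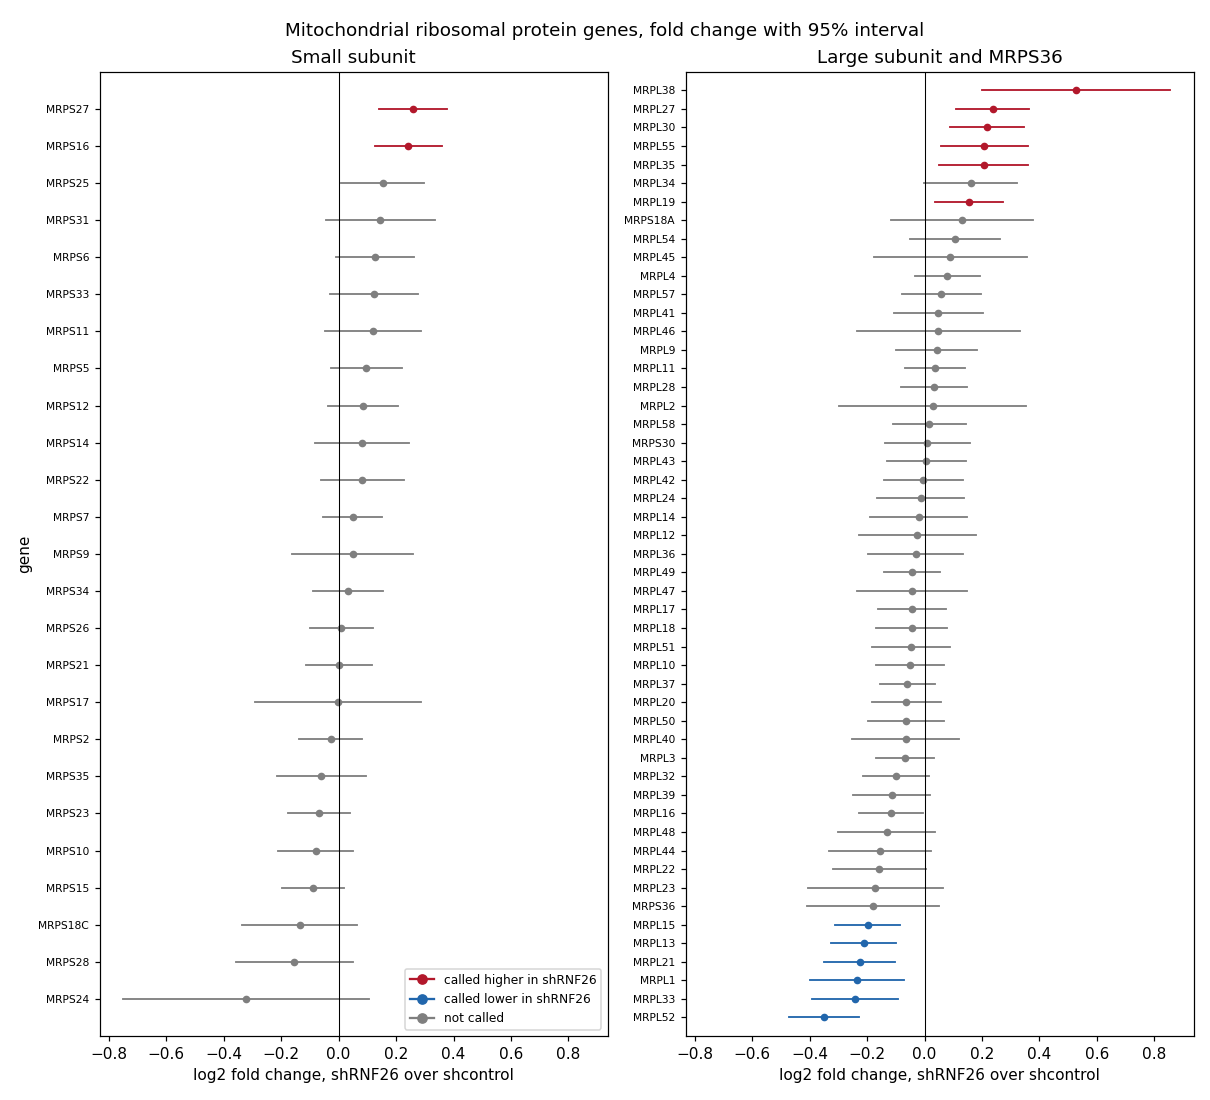
Log2 fold change of each of the 76 tested genes, shRNF26 over shcontrol, with its 95% confidence interval (line), small subunit genes in the left panel and large subunit genes with MRPS36 in the right panel. The 8 genes called higher lie at 0.15 or above and the 6 called lower at -0.20 or below, and the 62 genes that were not called lie mostly closer to 0.

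Summed over the tested members, the transcripts reached 3565, 3597 and 3445 CPM in shRNF26 cells, against 3566, 3542 and 3589 CPM in shcontrol cells. The 2 ranges overlap. The means were 3536 ± 80.0 CPM in shRNF26 cells and 3566 ± 23.1 CPM in shcontrol cells (SD, n = 3 each). In bulk RNA, fewer cells expressing a gene and less RNA per cell cannot be told apart.

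Depth was not scarce for most of these genes. The median member had 729.5 counts per library, and mean levels ran from 3.31 CPM for MRPS24 to 120.5 CPM for MRPS26. The median standard error of a log2 fold change was 0.065 for the members and 0.080 for all tested genes. MRPL53 and MRPS18B were listed at 0 in all 6 libraries and could not be tested. Genes that are widely expressed, among them TOMM6, were also listed at 0, so the listing is given as it stands.

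**Figure D2:**
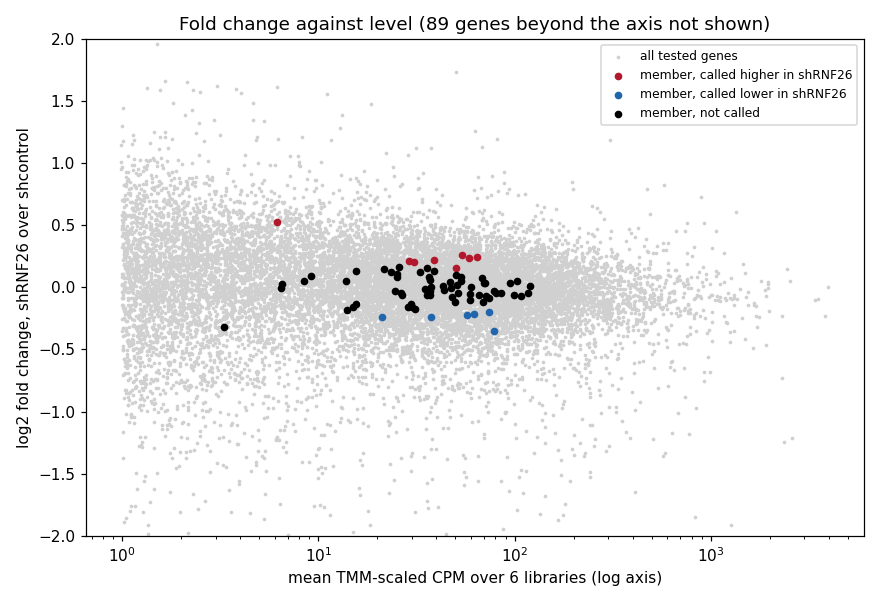
Log2 fold change, shRNF26 over shcontrol, against the mean TMM-scaled CPM over the 6 libraries (log axis), for all tested genes (grey) and the 76 members (coloured by call, with those not called in black). The members lie in a band from -0.35 to 0.53 at mean levels of 3.31 to 120.5 CPM, and 89 genes outside the axis, with changes above 2 in size, are not drawn.

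Of 25 tested small subunit genes with MRP symbols, 2 rose (MRPS27 and MRPS16) and 0 fell, with a median log2 fold change of 0.05. That is 8.0% called, beside 41.4% of all tested genes (18.9% of all tested genes higher and 22.6% lower). The count of small subunit genes lower in shRNF26 cells was also 0 at an unadjusted p below 0.05 (3 were higher), and 0 by DESeq2 and by limma voom. Of 50 tested large subunit genes, 6 rose and 6 fell (24.0% called), with a median of -0.03. Whether the subunits differ was not tested gene by gene. Total count scaling gave 11 small subunit genes higher and 0 lower, and 10 large subunit genes higher and 1 lower.

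Summed levels were also set side by side. Small subunit transcripts summed to 1174, 1185 and 1153 CPM in shRNF26 cells, against 1157, 1123 and 1131 CPM in shcontrol cells. Large subunit transcripts summed to 2377, 2399 and 2280 CPM in shRNF26 cells, against 2392, 2407 and 2443 CPM in shcontrol cells. The ranges of the small subunit sums overlap, and so do those of the large subunit sums. The ratio of the small subunit sum to the large subunit sum was 0.494, 0.494 and 0.506 in shRNF26 cells. In shcontrol cells it was 0.484, 0.467 and 0.463. These ranges do not overlap, but the gap between them was smaller than the spread within shcontrol cells. Taken singly, 50.1% of all tested genes did not overlap either. The called members are part of both sums, and the ratio was not among the planned results and was not tested. This ratio does not depend on library scaling and averaged 0.498 ± 0.00688 in shRNF26 cells and 0.471 ± 0.0112 in shcontrol cells (SD, n = 3 each).

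Genes of bacterial families made up most of the tested members and most of the called genes. Of the 46 tested genes of bacterial families, 6 rose and 5 fell (23.9% called, beside 41.4% of all tested genes). Of the 29 tested mitochondria-specific genes, 2 rose and 1 fell (10.3% called). Within the large subunit, 5 of 30 bacterial family genes rose and 5 fell, with a median log2 fold change of -0.04, while 1 of 20 mitochondria-specific genes rose and 1 fell, with a median of 0.001. In the small subunit, 1 of 16 bacterial family genes and 1 of 9 tested mitochondria-specific genes rose, with medians of 0.02 and 0.08. No difference between these classes was tested.

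Among the genes that rose, the small subunit pair had the lowest edgeR adjusted p. MRPS27 (ENSG00000113048), a mitochondria-specific protein with pentatricopeptide repeats that binds RNA, had 58.9, 58.5 and 59.9 CPM in shRNF26 cells, against 48.4, 47.7 and 52.0 CPM in shcontrol cells. All 3 shRNF26 libraries lay above all 3 shcontrol libraries, a rise of 19.7% (log2 fold change 0.26, SE 0.056, edgeR adjusted p = 0.00108). MRPS16 (ENSG00000182180), the counterpart of bacterial S16, a protein needed to assemble the small subunit, had 67.3, 73.2 and 69.7 CPM in shRNF26 cells, against 62.3, 58.1 and 57.3 CPM in shcontrol cells. Its groups did not overlap either (log2 fold change 0.24, SE 0.056, edgeR adjusted p = 0.0018). Both calls held under all 14 alternatives of scaling, filter, test, pairing and left-out library. MRPS16 overlaps DNAJC9, a coding gene on its strand with 5282 counts over the 6 libraries, so reads of these genes may not be separable. The alternatives did not change how reads were assigned.

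The largest rise belonged to the large subunit and to a gene with few counts. MRPL38 (ENSG00000204316), a mitochondria-specific protein of the large subunit, had 6.53, 7.66 and 7.56 CPM in shRNF26 cells, against 4.02, 5.72 and 5.36 CPM in shcontrol cells. These levels rest on 116 to 141 counts in the shRNF26 libraries and 70 to 94 in the shcontrol libraries. The lowest shRNF26 library stood above the highest shcontrol library, and the fold change was 0.53 on the log2 scale (SE 0.156, edgeR adjusted p = 0.0108). Shcontrol replicate 1 was the lowest of the 6 libraries, and without it the adjusted p was 0.0641. MRPL38 also overlaps another coding gene on its strand, with 46 counts over the 6 libraries, so reads of the 2 genes may not be separable.

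MRPL27 and MRPL30 rose in the large subunit with calls that also held under all 14 alternatives. MRPL27 (ENSG00000108826), the counterpart of bacterial L27, which lies near the peptidyl transferase centre in bacteria, had 66.1, 63.7 and 60.3 CPM in shRNF26 cells, against 57.1, 49.8 and 54.3 CPM in shcontrol cells (log2 fold change 0.24, SE 0.061, edgeR adjusted p = 0.00414). MRPL30 (ENSG00000185414), the counterpart of bacterial L30, had 41.8, 41.6 and 42.2 CPM in shRNF26 cells, against 34.4, 37.6 and 36.1 CPM in shcontrol cells (log2 fold change 0.22, SE 0.062, edgeR adjusted p = 0.00871). In both genes each shRNF26 library lay above each shcontrol library. The MRPL30 locus overlaps other coding genes on the same strand, with 35 and 2 counts over the 6 libraries.

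The remaining 3 large subunit genes that rose were nearer the threshold. MRPL55 (ENSG00000162910), a counterpart of bacterial L31, had 30.8, 30.9 and 31.7 CPM in shRNF26 cells, against 25.6, 26.4 and 28.9 CPM in shcontrol cells. MRPL35 (ENSG00000132313), counterpart of bacterial L35, had 34.8, 30.8 and 33.6 CPM in shRNF26 cells, against 27.2, 28.4 and 30.4 CPM in shcontrol cells. MRPL19 (ENSG00000115364), counterpart of bacterial L19, had 51.8, 52.5 and 55.0 CPM in shRNF26 cells, against 46.4, 48.4 and 48.5 CPM in shcontrol cells. In none of the 3 did the groups overlap, though in MRPL35 the lowest shRNF26 library and the highest shcontrol library were close. Their log2 fold changes were 0.21, 0.21 and 0.15, with edgeR adjusted p of 0.0273, 0.0320 and 0.0357 in that order. Leaving out 1 library often ended these calls. The adjusted p of MRPL19 was 0.0524 to 0.118 whichever library was left out, that of MRPL55 was 0.0537 to 0.0923 without any library but shcontrol replicate 3, and that of MRPL35 was 0.0792 to 0.146 without shRNF26 replicate 1 or 3 or shcontrol replicate 1 or 2.

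All 6 genes that fell encode large subunit proteins, as do 50 of the 76 tested members. The largest fall was that of a mitochondria-specific protein. MRPL52 (ENSG00000172590) had 70.7, 72.6 and 63.3 CPM in shRNF26 cells, against 92.6, 83.7 and 87.3 CPM in shcontrol cells. Every shRNF26 library lay below every shcontrol library. The fall of 21.5% (log2 fold change -0.35, SE 0.059, edgeR adjusted p = 9.0e-05) was called under all 14 alternatives, unlike the other falls.

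MRPL21, MRPL13 and MRPL15, counterparts of bacterial L21, L13 and L15, fell by similar amounts. MRPL21 (ENSG00000197345) had 51.4, 56.0 and 51.6 CPM in shRNF26 cells, against 58.6, 62.5 and 64.9 CPM in shcontrol cells (log2 fold change -0.23, SE 0.059, edgeR adjusted p = 0.00481). MRPL13 (ENSG00000172172) had 59.8, 57.5 and 56.4 CPM in shRNF26 cells, against 64.2, 67.6 and 69.4 CPM in shcontrol cells (log2 fold change -0.21, SE 0.054, edgeR adjusted p = 0.00418). MRPL15 (ENSG00000137547) had 72.7, 66.7 and 68.9 CPM in shRNF26 cells, against 78.9, 76.2 and 83.8 CPM in shcontrol cells (log2 fold change -0.20, SE 0.054, edgeR adjusted p = 0.00673). In each gene the 2 groups stood apart. Scaling by total counts, without the TMM factors, ended all 3 calls.

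MRPL33 and MRPL1 fell with calls that more alternatives ended. MRPL33 (ENSG00000243147), counterpart of bacterial L33, had 35.6, 36.1 and 31.8 CPM in shRNF26 cells, against 40.0, 38.4 and 43.9 CPM in shcontrol cells (log2 fold change -0.24, SE 0.071, edgeR adjusted p = 0.0107). MRPL1 (ENSG00000169288), counterpart of the protein of the bacterial L1 stalk, had 19.0, 19.6 and 19.7 CPM in shRNF26 cells, against 22.3, 23.1 and 23.4 CPM in shcontrol cells (log2 fold change -0.24, SE 0.078, edgeR adjusted p = 0.0206). Neither gene's groups overlapped. The MRPL33 locus overlaps BABAM2, a coding gene on the same strand with 999 counts over the 6 libraries. MRPL33 was not called with total count scaling, without shRNF26 replicate 3 (adjusted p = 0.0677) or without shcontrol replicate 3 (adjusted p = 0.0564). MRPL1 was called under 7 of the 14 alternatives, and not without shRNF26 replicate 1 (adjusted p = 0.0767), shcontrol replicate 2 (0.0517) or shcontrol replicate 3 (0.0554).

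**Figure D3:**
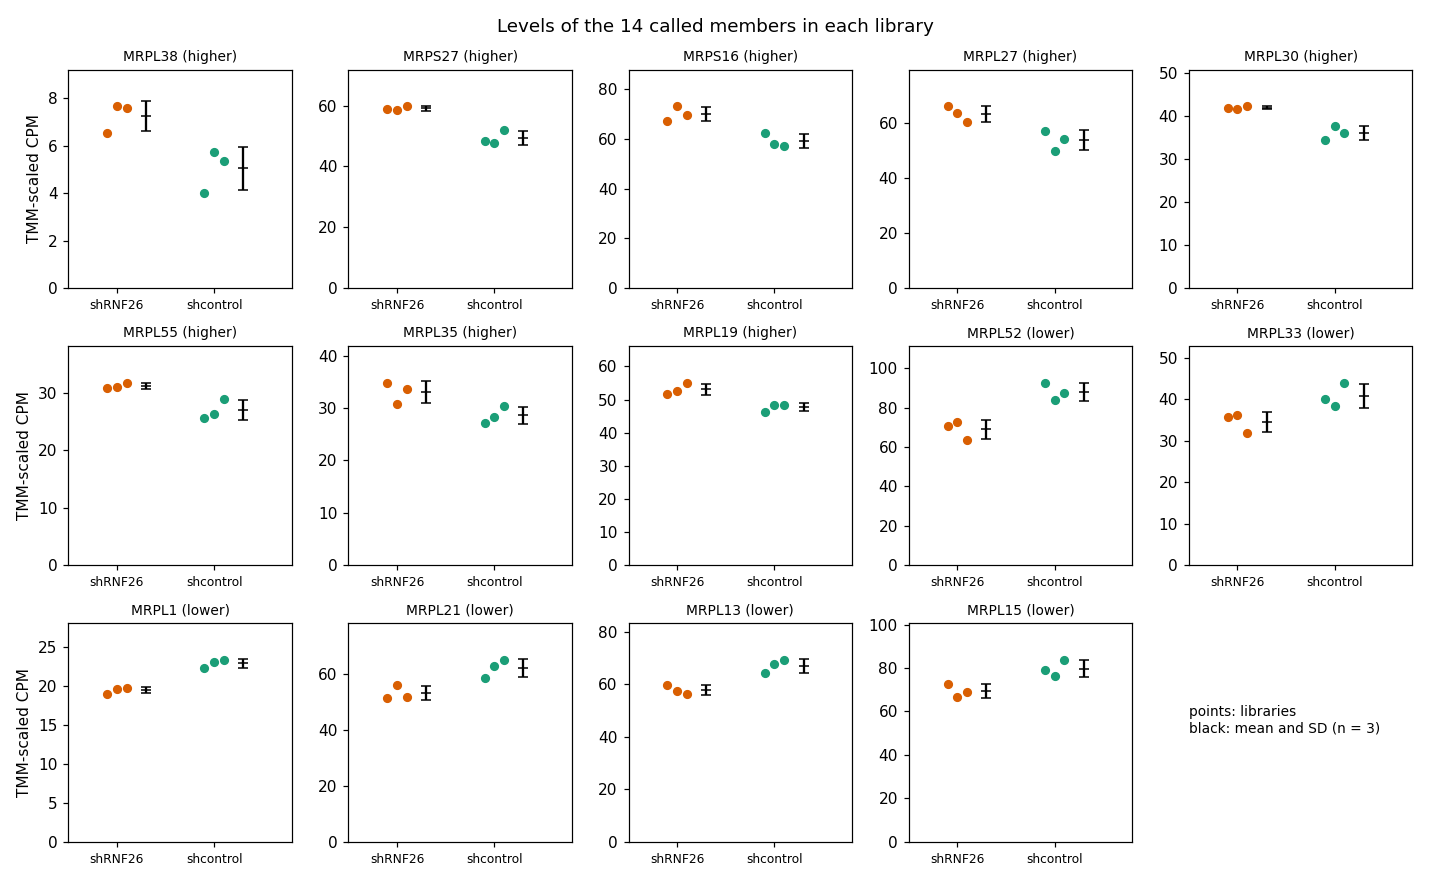
TMM-scaled CPM of the 14 called genes in each library, shRNF26 left and shcontrol right in every panel, on linear axes from 0, with the mean and SD of 3 libraries in black. In all 14 panels the 3 points of the shRNF26 libraries do not overlap those of the shcontrol libraries, and the steps are small beside the levels themselves, from 12.8% lower in MRPL15 and 11.2% higher in MRPL19 at the weakest to 44.2% higher in MRPL38.

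The scaling mattered for the direction of such small changes. With total count scaling 21 members were called higher and 1 lower, while over all genes 4449 were called higher and 2269 lower, against 2785 higher and 3332 lower with TMM. That scaling set the median log2 fold change at 0.09 for the members and at 0.10 for all tested genes. The difference between those medians was -0.011 with either scaling. All 14 genes called with TMM kept the sign of their change under every one of the 14 alternatives.

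Several members with special roles did not pass the test. MRPL12, the counterpart of the bacterial L7/L12 stalk protein, which also binds the mitochondrial RNA polymerase, had 37.9, 42.1 and 30.5 CPM in shRNF26 cells, against 41.0, 38.5 and 33.0 CPM in shcontrol cells. Its libraries spread widely and its groups overlapped (log2 fold change -0.03). MRPS30, a large subunit protein despite its name, had 44.7, 43.3 and 42.3 CPM in shRNF26 cells, against 42.0, 39.4 and 48.1 CPM in shcontrol cells (log2 fold change 0.01). MRPS36 had 14.1, 13.3 and 12.0 CPM in shRNF26 cells, against 16.8, 12.8 and 15.0 CPM in shcontrol cells, with an edgeR adjusted p of 0.208 and overlapping groups.

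The MRPS18 paralogs are 3 human genes related to bacterial S18, whose products sit at different places in the particle. MRPS18A, in the large subunit, had 17.5, 16.1 and 15.3 CPM in shRNF26 cells, against 15.6, 11.8 and 17.4 CPM in shcontrol cells (log2 fold change 0.13, SE 0.118, edgeR adjusted p = 0.400). MRPS18C, in the small subunit, had 14.4, 15.5 and 14.8 CPM in shRNF26 cells, against 15.9, 15.0 and 18.2 CPM in shcontrol cells (log2 fold change -0.14, edgeR adjusted p = 0.277). Neither paralog's groups separated, and MRPS18B was listed at 0.

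Levels between members were compared per kilobase of merged exons. MRPS26, a mitochondria-specific small subunit protein, was highest at 107 ± 3.23 CPM per kilobase in shRNF26 cells and 107 ± 8.08 in shcontrol cells (SD, n = 3 each). MRPS34, a small subunit protein also specific to mitochondria, followed at 64.3 ± 1.58 CPM per kilobase in shRNF26 cells and 62.8 ± 4.86 in shcontrol cells. MRPL15 came next at 58.3 ± 2.54 CPM per kilobase in shRNF26 cells and 66.9 ± 3.25 in shcontrol cells, so that MRPS34 and MRPL15 did not differ beyond their spread in shcontrol cells. The lowest levels were those of MRPS24 (1.12 ± 0.205 CPM per kilobase in shRNF26 cells and 1.41 ± 0.134 in shcontrol cells), MRPL46 (1.34 ± 0.212 in shRNF26 cells and 1.30 ± 0.124 in shcontrol cells) and MRPL38 (1.98 ± 0.171 in shRNF26 cells and 1.37 ± 0.245 in shcontrol cells).

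Those 3 low genes each overlap another coding gene on the same strand, and the sources used here do not say how reads in such overlaps were counted. They ranked 72, 66 and 75 of 76 when the longest coding transcript replaced the merged exons, a length chosen after seeing the data, while MRPS26 stayed at rank 1, MRPS34 and MRPL15 moved to ranks 7 and 8, and MRPL18 and MRPS15 took ranks 2 and 3. In all, 12 tested members overlap a coding gene on the same strand, and of these 3 rose (MRPL38, MRPL30 and MRPS16) and 1 fell (MRPL33). Of the 64 others, 5 rose and 5 fell. A gene on the opposite strand overlaps 37 tested members; the library kit marks strand, and the sources used here do not say whether the counting used it. Pseudogenes of the family took few reads: 79 are in the table, 31 of them with any count, and together they held 381 counts, or 0.104% of the members' 367947 counts over the 6 libraries.

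The promoters show what many of these genes share outside the expression data. RefSeq promoter windows of GRCh38.p14, 250 bases before to 50 bases after the start, were matched for 69 of the 78 members. MRPL2, MRPL10, MRPL13, MRPL15, MRPL21, MRPL23, MRPL35, MRPS28 and MRPS36 were not matched. Windows were searched on both strands for CCGGAAG, a core bound by ETS family factors such as GABP, AAGATGGC, bound by YY1, GCATGCGC, a core of the NRF1 site, and CACGTG, the E-box bound by MYC among others. Matches of 2 different motifs shared letters in 0 of the members' windows. A match describes letters and not binding. Of the members' windows, 44 held at least 1 of the 4 motifs.

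The 100 bases before the start are shown for the gene with the largest fall (MRPL52), for further called genes with ETS cores (MRPL27, which rose, and MRPL33, which fell), for the small subunit gene with the lowest adjusted p (MRPS27, whose only match, to YY1, lies after the start and outside the stretch), and for a gene that was not called and holds both an ETS core and a YY1 match (MRPL47). Each is read 5′ to 3′ on the gene's own strand, and capitals mark the motif matches. The capitals that end the MRPL52 stretch are the shown part of an ETS core that runs past the start. The coordinates, in GRCh38.p14, are chr14:22829787-22829886 on the plus strand for MRPL52, chr17:50373185-50373284 on the minus strand for MRPL27, chr2:27771619-27771718 on the plus strand for MRPL33, chr5:72320241-72320340 on the minus strand for MRPS27 and chr3:179604639-179604738 on the minus strand for MRPL47.
MRPL52: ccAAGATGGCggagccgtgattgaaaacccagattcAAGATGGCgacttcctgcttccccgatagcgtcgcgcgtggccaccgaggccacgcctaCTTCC
MRPL27: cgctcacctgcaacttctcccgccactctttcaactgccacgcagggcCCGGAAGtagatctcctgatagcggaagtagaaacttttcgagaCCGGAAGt
MRPL33: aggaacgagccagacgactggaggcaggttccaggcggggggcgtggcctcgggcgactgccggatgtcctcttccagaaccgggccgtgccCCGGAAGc
MRPS27: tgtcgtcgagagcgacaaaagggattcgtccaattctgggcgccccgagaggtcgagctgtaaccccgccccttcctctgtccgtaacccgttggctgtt
MRPL47: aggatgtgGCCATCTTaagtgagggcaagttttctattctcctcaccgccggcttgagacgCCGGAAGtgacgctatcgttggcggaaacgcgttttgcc

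ETS cores were in 29 members' windows, or 42.0%, against 10.7% of the 27305 promoter windows in the RefSeq table. The YY1 motif was in 20, or 29.0%, against 3.03% of all windows. NRF1 cores were in 6 (8.70%, against 3.27%) and E-boxes in 6 (8.70%, against 7.43%). Restricted to the bases before the start, the shares were 33.3% against 8.82% for the ETS core and 7.25% against 1.37% for YY1, so that most YY1 matches lay after the start. An ETS core was in 4 of 7 matched genes that rose, 2 of 3 that fell and 22 of 57 that were not called. The YY1 motif was in 2 of 7, 1 of 3 and 16 of 57 of these groups in the same order. MRPL13, MRPL15 and MRPL21, which fell, and MRPL35, which rose, had no matched window. With so few called genes the shares cannot say whether a motif goes with a direction, and they are given as a description. The 27305 windows were not limited to coding or expressed genes, and shares among such genes were not measured.

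**Figure D4:**
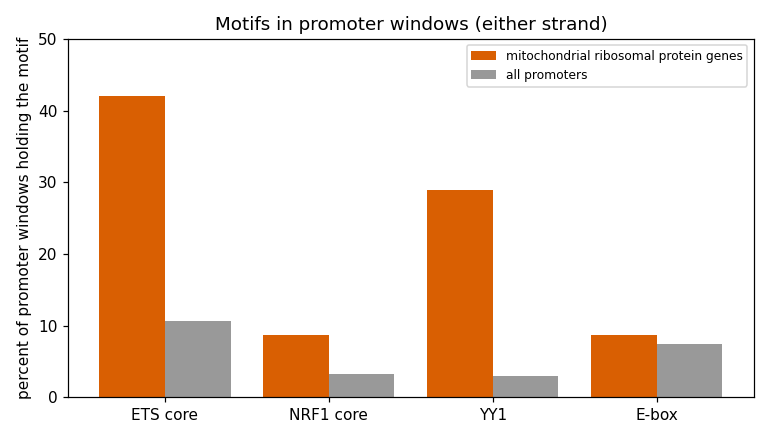
Percent of promoter windows that hold each motif on either strand, for the 69 matched mitochondrial ribosomal protein genes (left bar of each pair) and for all 27305 windows (right bar). The 27305 windows were not limited to coding or expressed genes. The ETS core (42.0% against 10.7%) and the YY1 motif (29.0% against 3.03%) were far more frequent in the members' windows, the NRF1 core (8.70% against 3.27%) less so, and the E-box was at a like share (8.70% against 7.43%).

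Genes for factors that bind such motifs were also measured. Of 8 tested nuclear regulators of mitochondrial genes, 0 rose and 5 fell by edgeR with TMM scaling, 1 was higher at an unadjusted p below 0.05, DESeq2 and limma voom called 0 higher, and 2 rose and 5 fell with total count scaling. The 5 are 62.5% of the list, beside 22.6% of all tested genes called lower and 41.4% called in either direction. MYC, a growth factor-responsive transcription factor that binds the E-box, averaged 168 ± 6.69 CPM in shRNF26 cells and 418 ± 28.0 CPM in shcontrol cells (SD, n = 3 each), a log2 fold change of -1.32 (edgeR adjusted p = 4.79e-14). GABPB1, which pairs with the ETS factor GABPA, averaged 32.8 ± 1.25 CPM in shRNF26 cells and 46.8 ± 2.76 CPM in shcontrol cells (log2 fold change -0.51, edgeR adjusted p = 3.89e-06). YY1 averaged 223 ± 4.79 CPM in shRNF26 cells and 274 ± 12.4 CPM in shcontrol cells (log2 fold change -0.30, edgeR adjusted p = 1.29e-05). NRF1 and GABPA were not called, at log2 fold changes of 0.07 and 0.13, while PPRC1, a transcriptional coactivator, fell by 0.24 and ESRRA, a nuclear receptor, fell by 0.21. RNA levels were measured, not the activity of these factors.

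Many of the genes share their start region with a neighbour on the other strand. By GENCODE release 29, 16 members have a coding gene that starts on the opposite strand, up to 1000 bases before the member's own start, and was tested too. Genes starting past the member's start were not counted, and the pair of MRPL46 and MRPS11 is counted from both sides. In 4 of these pairings the member was called and in 5 the partner, shares below the 41.4% of all tested genes, and both were called for MRPL27 with EME1, a subunit of a DNA repair nuclease, and for MRPL52 with SLC7A7, an amino acid transporter. EME1, starting 6 bases from MRPL27, averaged 20.9 ± 1.07 CPM in shRNF26 cells and 17.6 ± 0.309 CPM in shcontrol cells (log2 fold change 0.25, edgeR adjusted p = 0.0218). SLC7A7, starting 59 bases from MRPL52, averaged 1.01 ± 0.0907 CPM in shRNF26 cells and 1.84 ± 0.527 CPM in shcontrol cells (log2 fold change -0.85, edgeR adjusted p = 0.0265). In both pairings the member and its neighbour moved in the same direction, though SLC7A7 lay close to the filter of 1 CPM. The other called members in such pairings had neighbours that were not called: MRPL21, at -0.23, lies beside IGHMBP2, at 0.08, and MRPL30, at 0.22, beside MITD1, at 0.11 on the log2 scale.

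Other neighbours moved without the member. ZNF189, a zinc finger gene beside MRPL50, fell by 0.41 on the log2 scale (edgeR adjusted p = 6.42e-05), while MRPL50 was at -0.06 and not called. TCP1, a subunit of the cytosolic chaperonin beside MRPL18, fell by 0.16 (edgeR adjusted p = 0.00206), with MRPL18 at -0.04 and not called. HELQ, beside MRPS18C, fell by 0.36 (edgeR adjusted p = 0.0227), with MRPS18C at -0.14 and not called. MRPL46 and MRPS11, members of the large and the small subunit, start 34 bases apart and had log2 fold changes of 0.05 and 0.12, neither of them called.

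Proteins of the mitochondrial ribosome with other symbols numbered 5, of which 1 was higher and 1 lower, or 40.0% called beside 41.4% of all tested genes (1 higher and 0 lower with total count scaling). PTCD3, a pentatricopeptide repeat protein of the small subunit, averaged 70.4 ± 2.79 CPM in shRNF26 cells and 60.7 ± 2.79 CPM in shcontrol cells (log2 fold change 0.22, edgeR adjusted p = 0.00428). DAP3, a GTP-binding protein of the small subunit, averaged 94.6 ± 2.89 CPM in shRNF26 cells and 105 ± 3.20 CPM in shcontrol cells (log2 fold change -0.16, edgeR adjusted p = 0.0121). GADD45GIP1 was at -0.12, AURKAIP1 at -0.07 and CHCHD1 at -0.06 on the log2 scale, and none of these 3 passed. Without shRNF26 replicate 2 the count lower was 0, DAP3 included.

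The factors that build and run the particle also moved in both directions. Of 26 assembly factors 4 rose and 1 fell with TMM scaling (19.2% called, beside 41.4% of all tested genes), and 11 rose and 0 fell with total count scaling. The count higher was 1 without shRNF26 replicate 1 and 2 without shcontrol replicate 2, and the count lower was 0 without any library but shcontrol replicate 3. MTG1, a GTPase of large subunit assembly, averaged 10.3 ± 1.16 CPM in shRNF26 cells and 7.40 ± 0.803 CPM in shcontrol cells (log2 fold change 0.47, edgeR adjusted p = 0.00618), and MALSU1, a late large subunit factor, fell by 0.17. Of 14 tested translation factors 2 rose and 2 fell (28.6% called), and 4 rose and 2 fell with total count scaling or upper quartile factors. With TMM scaling 1 was higher without shRNF26 replicate 1 or 3 or shcontrol replicate 1 or 2. MTRF1L, a release factor that ends translation at stop codons, averaged 22.5 ± 1.66 CPM in shRNF26 cells and 37.4 ± 3.05 CPM in shcontrol cells (SD, n = 3 each), a log2 fold change of -0.74 (edgeR adjusted p = 5.44e-07), larger in size than that of any member. MRRF, the ribosome recycling factor, rose by 0.29.

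Genes for mitochondrial transcription and RNA handling, which supply the RNAs that the ribosome uses, changed in 11 of 19 cases (57.9%, beside 41.4% of all tested genes), 4 higher and 7 lower. With total count scaling the balance turned to 7 higher and 4 lower. TFB2M, a transcription factor of the mitochondrial RNA polymerase, averaged 28.6 ± 1.11 CPM in shRNF26 cells and 42.8 ± 3.59 CPM in shcontrol cells (log2 fold change -0.58, edgeR adjusted p = 2.91e-06). TFAM, which packages mitochondrial DNA and starts its transcription, averaged 88.7 ± 0.500 CPM in shRNF26 cells and 113 ± 6.55 CPM in shcontrol cells (log2 fold change -0.35, edgeR adjusted p = 1.48e-05). FASTKD1 rose by 0.32. The 15 genes of mitochondrial DNA that were looked up, for its proteins and ribosomal RNAs, were listed at 0 in every library. The products of this ribosome's template were therefore not analysed here. Transfer RNA genes of mitochondrial DNA were not looked up.

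Import machinery, through which the ribosomal proteins enter mitochondria, showed 0 higher and 7 lower of 20 tested genes by edgeR with TMM scaling (35.0% called, beside 41.4% of all tested genes, and 22.6% of all tested genes lower), and 2 higher and 4 lower with total count scaling. The count higher was also 0 at an unadjusted p below 0.05, by DESeq2 and by limma voom, and 4 were lower without shRNF26 replicate 3. TIMM17A, a subunit of the inner membrane translocase, averaged 71.2 ± 0.843 CPM in shRNF26 cells and 91.8 ± 6.53 CPM in shcontrol cells (log2 fold change -0.37, edgeR adjusted p = 2.61e-05). TOMM40, the pore of the outer membrane, averaged 205 ± 8.78 CPM in shRNF26 cells and 245 ± 17.1 CPM in shcontrol cells (log2 fold change -0.26, edgeR adjusted p = 0.000354).

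Cytosolic ribosomal protein genes, the family most like the mitochondrial one in function, were called in a larger share with TMM scaling, and with total count scaling in a share close to that of the members, 30.5% of cytosolic and 28.9% of mitochondrial genes beside 45.5% of all tested genes. Of 82 tested, 0 rose by edgeR and 47 fell, or 57.3% (22.6% of all tested genes were lower), with a median log2 fold change of -0.14, and with total count scaling 5 rose and 20 fell, with a median of -0.05. At an unadjusted p below 0.05 the count higher was 1, and it was 0 by DESeq2 and by limma voom. RPL12 averaged 531 ± 13.6 CPM in shRNF26 cells and 673 ± 27.3 CPM in shcontrol cells (SD, n = 3 each), a log2 fold change of -0.34 (edgeR adjusted p = 7.5e-07). RPL22L1, a paralog of RPL22, averaged 36.5 ± 0.471 CPM in shRNF26 cells and 50.2 ± 1.37 CPM in shcontrol cells (log2 fold change -0.46, edgeR adjusted p = 3.98e-06). Cytosolic ribosomal proteins have many near-identical processed copies, so their counts are less certain than those of the mitochondrial family, and the difference between the families was not tested.

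**Figure D5:**
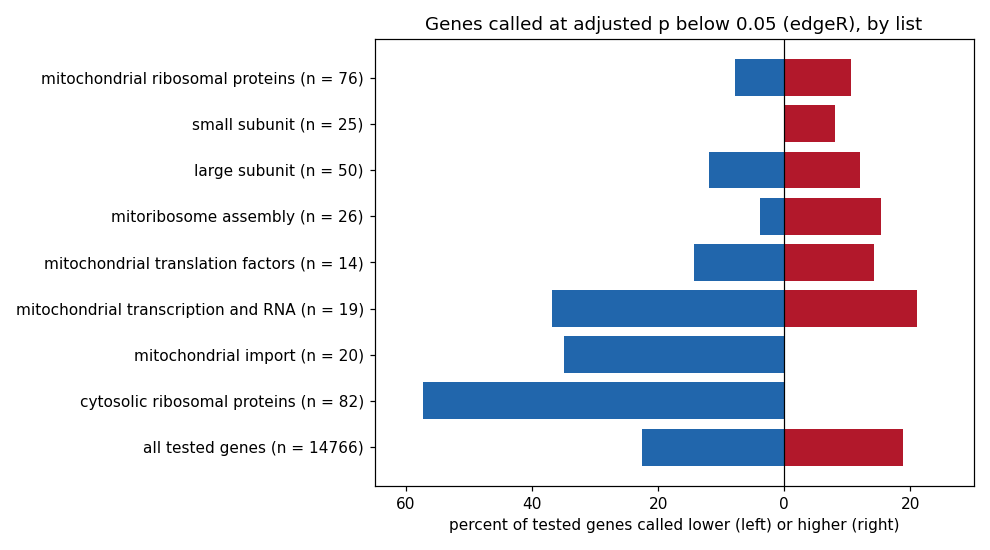
Percent of tested genes called lower (bars to the left) or higher (bars to the right) in shRNF26 cells by edgeR with TMM scaling, for the mitochondrial ribosomal proteins, their subunits, related lists and all tested genes. The mitochondrial ribosomal proteins (18.4% called) have short bars on both sides, while 57.3% of the cytosolic ribosomal proteins were lower and 0 were higher.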

How the data were processed

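RNA was measured in 6 libraries of A498 cells, 3 shRNF26 and 3 shcontrol, made with a strand-marking kit per the labels' protocols. The authors deposited 1 table of whole-number counts per gene; the sources used here do not name the aligner, counter or annotation, and the build is hg19 per the submitters' processing notes. Per the file headers the rows are Ensembl gene IDs, and 2 blank rows, both with 0 counts, were left out. Symbols came from a gene name table for 61369 IDs and from GENCODE release 29 for 159. Exon lengths, overlaps and neighbours also came from GENCODE release 29, which is on GRCh38 and may differ from the annotation used for counting. Libraries held 16682871 to 18021718 counts.

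Genes averaging 1 CPM or more were tested (99.7% of counts) with edgeR 4.0.16 in R 4.3.3: TMM scaling, glmQLFit and glmQLFTest, two-sided, Benjamini-Hochberg over 14766 genes, threshold 0.05. DESeq2 1.42.0, limma 3.58.1 (voom), other scalings, filters, a replicate block and leaving out each library were alternatives. The fit was checked on simulated data with few changed genes, as many higher as lower, so that check does not bear on the choice of scaling. Intervals and floors cover counting error and replicate spread only. Named genes are the called members with groups that do not overlap, the 3 highest and lowest per length, members failing the filter, fixed members (MRPS18A, MRPS18B, MRPS18C, MRPS30, MRPL12, MRPS36), up to 4 called genes per related list, and RNF26; neighbours and promoter examples were added after seeing the values. The members and lists were chosen with earlier results of these data known.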

Additional observations from a re-analysis of the deposited data

How the results depend on the processing

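Total count scaling moved the members most: 22 were called, 21 higher and 1 lower, with a median log2 fold change of 0.088, and 11 small subunit genes were called. Of those 22, 9 were among the 14 called with TMM. Upper quartile factors gave a median of 0.050, 17 members called and 5 small subunit genes called. The DESeq2 Wald test called 5 members higher and 10 in all, each of them among the 14. With the replicate block 14 members were called, the same genes, and 6414 genes overall. The deviations of same-numbered libraries correlated at 0.011, -0.027 and 0.093, and those of differently numbered libraries at -0.119 to 0.118. With 3 libraries a group, such values cannot say whether the numbers pair the libraries, and no sample number was crossed. Leaving out 1 library gave 10 to 13 members called, 4 to 7 higher and 5 to 9 lower, with 4 higher without shcontrol replicate 1 and 5 higher without shRNF26 replicate 1 or shcontrol replicate 2; medians ran from -0.019 to 0.022, and 2 to 3 small subunit genes were called. Without members that overlap a coding gene on the same strand, a choice made after seeing the data, 10 were called. Genes that were not called changed sign: MRPL12 was at 0.066 with total count scaling, 0.028 with upper quartile factors and -0.13 to 0.094 with a library left out, MRPS30 at -0.054 to 0.090 and MRPS18A at -0.014 to 0.25 with a library left out. DESeq2 size factors, limma voom, no filter and a minimum of 5 CPM called 14, 14, 12 and 14 members. The cause of these shifts was not tested. With TMM scaling the smallest log2 fold change called was 0.154, in MRPL19. MRPL34 at 0.160 and MRPL22 at -0.157 were not called (edgeR adjusted p = 0.108 and 0.114). Changes of that size or smaller are beyond what 3 libraries a group can show for most members, given a median standard error of 0.065.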
